A study of Homo sapiens with 12 samples.

Results

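Expression of 10 genes of growth factor signalling was followed in human liver spheroid co-cultures exposed to total parenteral nutrition (TPN): the ligand AREG, the receptors EGFR, MET, FGFR2 and FGFR3, the mitogen-activated protein kinase (MAPK) phosphatases DUSP5, DUSP6 and DUSP9, and the Sprouty proteins SPRY2 and SPRY4. They were taken by gene symbol from a table of 16705 genes, and all 10 were among the 11713 genes with a mean of at least 0.5 FPKM (fragments scaled to transcript length and to library size) over the 12 libraries. The spheroids combined C3A cells, a clone of the HepG2 hepatoma line, with LX-2 cells, an immortalised line of activated hepatic stellate cells, and were left to aggregate before exposure. The 4 groups were untreated spheroids and spheroids given 1% TPN (amino acids with electrolytes, glucose, lipid emulsion, trace elements and vitamins) in serum-containing medium, each harvested at 24 h and at 144 h of exposure, with 3 libraries per group. Every library was made from pooled spheroids, and each cell type was a single established line, so the p-values measure the spread between pools of these lines and not between donors. The study states that its sequencing data came from 3 independent experiments. Whether equal replicate numbers stood for cultures grown together was not given in the labels.

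Growth factors such as amphiregulin (encoded by AREG), hepatocyte growth factor and the fibroblast growth factors bind receptor tyrosine kinases, which act through RAS, RAF and MEK to activate the kinase ERK. ERK activity in turn raises the transcription of its own brakes, among them dual-specificity phosphatases, which remove the activating phosphates from MAPKs, and the Sprouty proteins, which restrain the steps between receptor and RAF. In the liver, EGFR and MET are the receptors best known for hepatocyte proliferation in regeneration, and the fibroblast growth factor receptors also serve the control of bile acid and nutrient metabolism.

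The table gave no fragment totals. The spacing of the lowest FPKM values of 42 short genes placed the libraries at an estimated 1.93e+07 to 2.04e+07 fragments each. This estimate was made around 1 depth shared by all 12 libraries, so it cannot show whether they were alike in depth. On that estimate the lowest AREG value stood for about 11.5 fragments, the lowest DUSP5 value for about 20 and the lowest FGFR2 value for about 32.7, whereas the other 7 genes were never below about 190.4, so that counting error weighed most on AREG, DUSP5 and FGFR2. All 10 hepatocyte markers were present, with a summed level of 16333 to 16636 FPKM in untreated spheroids at 24 h, 14843 to 14988 with TPN at 24 h, 17407 to 18831 in untreated spheroids at 144 h and 12835 to 13884 with TPN at 144 h. ALB (6044 untreated and 3863 with TPN) and AFP (4304 and 2673) carried most of the fall at 144 h. SERPINA1 (3670 and 3584) and FGB (65.6 and 68.2) did not pass the test at 144 h. The other 8 were called lower (limma, adjusted p below 0.05), beside 28.3% of all genes. The 12 stellate markers summed to 195.5 to 201.7, 186.8 to 191.9, 217.6 to 228.4 and 236.7 to 239.1 FPKM in the group order of the hepatocyte sums, but LOX carried most of the later sum. COL1A1 averaged 15.1, 15.1, 1.92 and 0.747 FPKM in these groups, VIM averaged 15.6, 13.2, 2.44 and 1.08, and ACTA2 averaged 57.8, 47.3, 47.9 and 45.4. PDGFRB averaged 3.10, 3.01, 3.08 and 2.32 FPKM, whereas the stellate markers DES and PDGFRA averaged at most 0.06 FPKM in any group. The 4 endothelial markers together stayed at or below 0.53 FPKM, but some markers listed for other cell types were higher. CD68, listed for macrophages, averaged 46.7, 52.6, 47.8 and 63.7 FPKM in the same groups. KRT19 and SOX9, listed for cholangiocytes, averaged 117.9, 99.1, 98.5 and 68.7 FPKM, and 67.1, 67.1, 76.8 and 74.8 FPKM. MARCO, PTPRC and KRT7 of these lists averaged at most 0.0333 FPKM, and CD163 and CFTR were absent from the deposited table. In bulk RNA, fewer cells of a type and less RNA per cell cannot be told apart, and the part of the marker shifts in the results below was not tested.

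After 24 h of TPN, 3 of the 10 genes changed. MET rose, while FGFR3 and DUSP9 fell, each by less than 0.58 on the log2 scale, the fold limit used for differentially expressed genes (DEGs). At an adjusted p below 0.05 (limma, Benjamini-Hochberg over all genes tested), 10.5% of all genes changed at this time (5.04% higher and 5.46% lower) and 0.914% were DEGs, and the 3 of 10 genes are to be read against these shares. After 144 h, 9 of the 10 had changed (5 higher and 4 lower), against 52.5% of all genes (24.2% higher and 28.3% lower), and 7 were DEGs (4 higher and 3 lower), against 9.48% (5.75% higher and 3.73% lower). Because the 10 genes were chosen with earlier results of these data known, an excess over such all-gene shares is not evidence about the pathway. AREG, MET, DUSP5 and DUSP6 were higher, FGFR2, FGFR3 and DUSP9 were lower, SPRY4 rose and SPRY2 fell by less than the DEG limit, and EGFR was the gene that did not pass the test. The TPN and untreated libraries did not overlap for 5 of the 10 genes at 24 h (29.9% of all genes) and for 9 of the 10 at 144 h (57.3% of all genes). The median log2 fold change of the 10 genes was -0.01 at 24 h and 0.13 at 144 h, beside -0.00445 and -0.0177 over all genes. With 3 libraries against 3, the exact two-sided permutation test of a single gene cannot go below p = 0.1, and every gene whose libraries did not overlap stood at that limit.

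**Figure D1:**
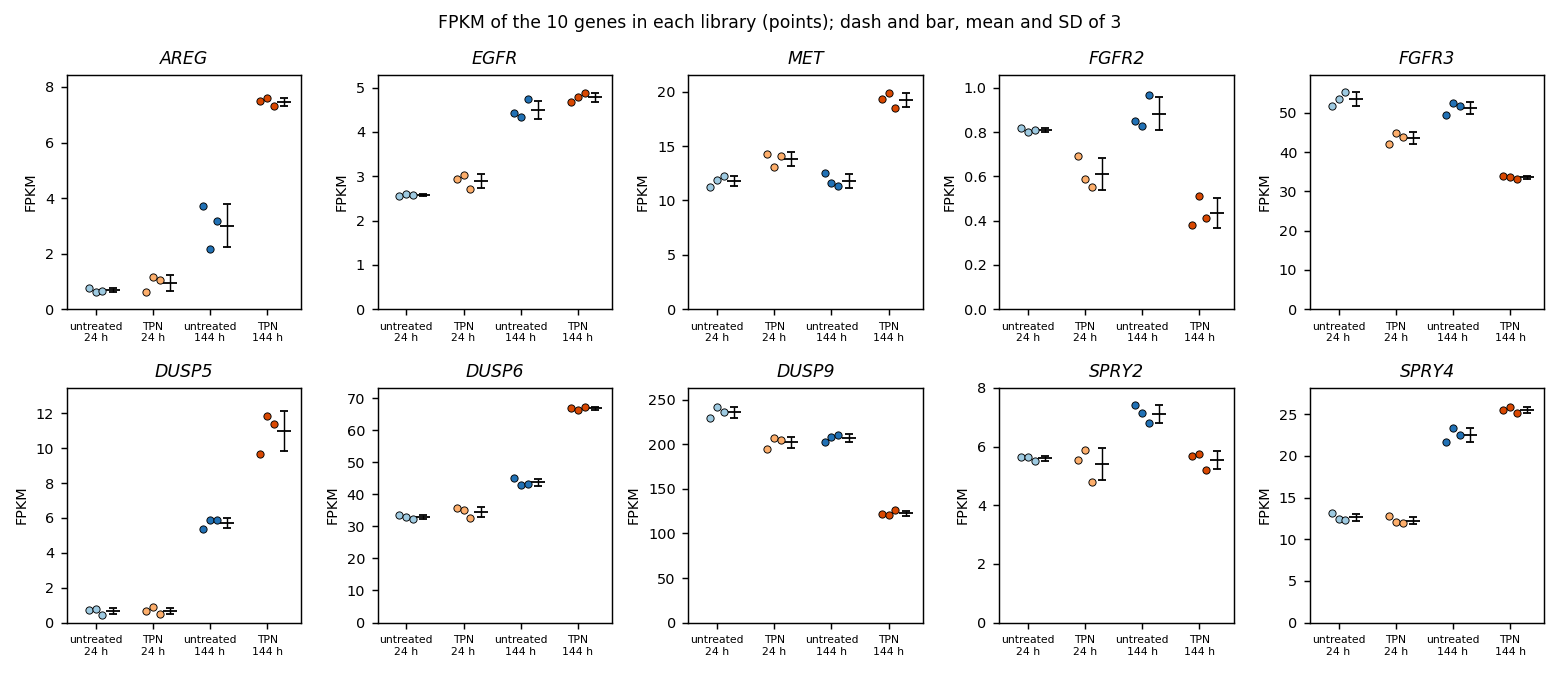
FPKM (vertical axis, from 0, each panel on its own scale) of the 10 genes in every library, with the 4 groups along the horizontal axis; points are libraries, and the dash and bar beside them are the mean and SD of 3. At 144 h the TPN points lie clear of the untreated points in every panel except EGFR, where 4.67 to 4.87 overlaps 4.33 to 4.73.

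AREG (gene ID 374, chr4:74445136-74455005; gene positions are those of the deposited table, GRCh38.p13) encodes amphiregulin, a ligand of EGFR that is shed from the cell surface. Its FPKM was 0.77, 0.61 and 0.67 in the 3 untreated libraries at 24 h and 0.63, 1.16 and 1.07 with TPN, and it was 3.71, 2.17 and 3.16 in untreated spheroids at 144 h and 7.50, 7.60 and 7.31 with TPN. At 24 h the groups overlapped, and at 144 h each TPN library held more than any untreated one. The difference at 24 h was 0.39 on the log2(FPKM + 0.1) scale (SE 0.201), which did not pass the test (limma, adjusted p = 0.260). At 144 h AREG was 2.49-fold higher with TPN, a log2 fold change of 1.31 (SE 0.201, adjusted p = 9.84e-05), the largest of the 10 genes. Without the first TPN library at 24 h, in which AREG was lowest, the 24 h difference came to 0.64 with an adjusted p of 0.0425.

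The 250 bases upstream of the AREG start were set out because AREG was the gene that moved furthest with TPN, and because they hold a full cAMP response element. They lie on the forward strand of chromosome 4, at chr4:74444886-74445135 of GRCh38.p14 (RefSeq), and the capitals mark the element TGACGTCA at -65 to -58 from the start.
AREG upstream: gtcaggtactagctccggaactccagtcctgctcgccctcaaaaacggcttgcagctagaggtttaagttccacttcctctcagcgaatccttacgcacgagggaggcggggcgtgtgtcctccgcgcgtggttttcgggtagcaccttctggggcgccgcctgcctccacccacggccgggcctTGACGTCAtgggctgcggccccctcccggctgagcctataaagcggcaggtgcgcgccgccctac
Of the 35114 RefSeq windows of this length, 1.65% hold TGACGTCA. RefSeq windows were found for 9 of the 10 genes, 17 windows in all, and were searched on both strands for that element, for the AP-1 motif TGANTCA (6.57% of all windows), the ETS motif CCGGAAG (8.52%), the EGR motif GCGTGGGCG (0.721%) and the antioxidant response element TGACNNNGC (10.9%). The AREG window held only the first of these. An internal EGFR window (chr7:55109589-55109838) held the AP-1 motif at 2 places, the SPRY4 window held the antioxidant response element, and the windows of the other genes held none of these letters. A match in this window is a description of the letters and says nothing of binding.

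The receptors parted in direction. MET (chr7:116672196-116798386) encodes the receptor for hepatocyte growth factor, and its FPKM was 11.25, 11.88 and 12.22 in untreated spheroids and 14.31, 13.09 and 14.12 with TPN at 24 h. At 144 h it was 12.56, 11.57 and 11.36 in untreated spheroids and 19.30, 19.89 and 18.54 with TPN. All TPN libraries were above all untreated libraries of the same time, and the untreated libraries of the 2 times overlapped. The rise was 0.23 (SE 0.0521, limma adjusted p = 0.0118) at 24 h and 0.70 (SE 0.0521, adjusted p = 1.23e-07), or 1.62-fold, at 144 h. The 24 h call was lost without the first untreated library (adjusted p = 0.0551) and without the first TPN library (adjusted p = 0.0533) of that time.

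FGFR3 (chr4:1793293-1808872) and FGFR2 (chr10:121478330-121598458) encode receptors for fibroblast growth factors, and both were lower with TPN. FGFR3 stood at 51.83, 53.53 and 55.23 FPKM in untreated spheroids and at 41.93, 44.96 and 43.78 with TPN at 24 h, then at 49.51, 52.47 and 51.73 in untreated spheroids and 33.97, 33.61 and 33.05 with TPN at 144 h. The groups did not overlap at either time, and the TPN libraries at 144 h were the lowest of all 12. The FGFR3 log2 fold change was -0.30 (SE 0.0358, adjusted p = 1.15e-04) at 24 h and -0.61 (SE 0.0358, adjusted p = 1.27e-08) at 144 h, where the untreated level was 1.53-fold that with TPN. FGFR2 was found at a far lower level, at 0.82, 0.80 and 0.81 FPKM in untreated spheroids and 0.69, 0.59 and 0.55 with TPN at 24 h, and at 0.85, 0.83 and 0.97 against 0.38, 0.51 and 0.41 at 144 h. Again no TPN library reached an untreated one, but the difference at 24 h, -0.36 (SE 0.147), did not pass (adjusted p = 0.143), except without the variance trend in the fit (adjusted p = 0.0399). At 144 h it was -0.89 (SE 0.147, adjusted p = 1.89e-04). Since FGFR2 lay near the added 0.1 FPKM, its fold change was sensitive to that constant, and with 1 FPKM added it was -0.39, still called but no longer a DEG.

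EGFR (chr7:55019017-55216855), the receptor bound by amphiregulin, had 2.56, 2.60 and 2.58 FPKM in untreated spheroids and 2.93, 3.03 and 2.71 with TPN at 24 h, and 4.42, 4.33 and 4.73 against 4.67, 4.79 and 4.87 at 144 h. The libraries separated at 24 h, by 0.16 (SE 0.0641, adjusted p = 0.150), and overlapped at 144 h, where the difference was 0.09 with a 95% confidence interval of -0.05 to 0.23 (adjusted p = 0.273). An increase of EGFR beyond 0.23 at 144 h therefore lay outside the interval, whereas its ligand AREG had a lower bound of 0.88.

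The 3 phosphatases moved in opposite directions at 144 h. DUSP9 (chrX:153642441-153651326) encodes a cytosolic phosphatase that acts on ERK and also on other MAPKs, and it was the most abundant of the 10 genes in every group. It stood at 230.09, 242.49 and 236.33 FPKM in untreated spheroids and 195.42, 206.86 and 205.10 with TPN at 24 h, and at 202.64, 208.50 and 210.78 in untreated spheroids and 121.54, 120.45 and 126.12 with TPN at 144 h. The groups did not overlap at either time, with a log2 fold change of -0.22 (SE 0.0312, adjusted p = 4.13e-04) at 24 h and -0.76 (SE 0.0312, adjusted p = 4.43e-10), or 1.69-fold lower, at 144 h.

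DUSP6 (chr12:89347235-89353271), the cytosolic phosphatase most selective for ERK, had 33.41, 32.83 and 32.32 FPKM in untreated spheroids and 35.61, 35.23 and 32.53 with TPN at 24 h, and 45.07, 43.02 and 43.28 against 67.05, 66.28 and 67.18 at 144 h. The groups overlapped at 24 h (0.07, SE 0.0361, adjusted p = 0.284) and were far apart at 144 h, where the TPN libraries differed among themselves by less than 1 FPKM (0.61, SE 0.0361, adjusted p = 1.36e-08). DUSP5 (chr10:110497907-110516025), which acts on ERK in the nucleus, was near the filter at 24 h, with 0.74, 0.75 and 0.46 FPKM in untreated spheroids and 0.65, 0.87 and 0.49 with TPN. At 144 h it had reached 5.36, 5.86 and 5.88 FPKM in untreated spheroids and 9.69, 11.84 and 11.41 with TPN. The overlap at 24 h (0.03, SE 0.178, adjusted p = 0.938) gave way to separate groups at 144 h, where DUSP5 was 1.90-fold higher with TPN (0.93, SE 0.178, adjusted p = 6.31e-04).

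For the pair of abundant phosphatases that went opposite ways, the upstream windows are given side by side. DUSP6 lies on the reverse strand of chromosome 12 (chr12:89352502-89352751) and DUSP9 on the forward strand of the X chromosome (chrX:153646953-153647202, the window at the start of its GENCODE canonical transcript; GRCh38.p14, RefSeq), and neither has capitals because none of the 5 motifs occurred.
DUSP6 upstream: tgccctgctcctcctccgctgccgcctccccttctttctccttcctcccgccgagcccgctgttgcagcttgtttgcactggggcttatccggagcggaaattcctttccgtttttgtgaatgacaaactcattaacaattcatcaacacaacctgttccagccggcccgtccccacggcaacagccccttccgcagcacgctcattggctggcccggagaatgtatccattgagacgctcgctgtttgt
DUSP9 upstream: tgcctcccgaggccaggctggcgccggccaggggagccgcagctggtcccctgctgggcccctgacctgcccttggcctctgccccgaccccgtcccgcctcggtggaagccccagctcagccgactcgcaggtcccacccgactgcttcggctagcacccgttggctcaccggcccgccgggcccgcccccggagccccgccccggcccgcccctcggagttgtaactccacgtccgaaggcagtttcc
They differed in base composition, with 57.2% G and C and 16 CG pairs in the DUSP6 window and 75.6% and 24 CG pairs in the DUSP9 window, beside a median of 58% G and C over all windows.

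Sprouty proteins are induced by receptor signalling and limit it. SPRY4 (chr5:142236190-142326455) had 13.14, 12.41 and 12.32 FPKM in untreated spheroids and 12.78, 12.02 and 11.92 with TPN at 24 h, and 21.61, 23.28 and 22.53 against 25.51, 25.86 and 25.16 at 144 h. It did not pass the test at 24 h (-0.04, SE 0.0423, adjusted p = 0.584) and rose at 144 h by 0.18 (SE 0.0423, adjusted p = 0.00252). SPRY2 (chr13:80335976-80341126) had 5.65, 5.66 and 5.51 FPKM in untreated spheroids and 5.54, 5.89 and 4.8 with TPN at 24 h, and 7.41, 7.13 and 6.79 against 5.68, 5.76 and 5.19 at 144 h. Its groups overlapped at 24 h (-0.06, SE 0.0722, adjusted p = 0.712), and at 144 h every TPN library lay below every untreated one, with a fall of 0.35 (SE 0.0722, adjusted p = 9.96e-04). The SPRY2 level with TPN at 144 h was thus within the range of the 24 h libraries, while the untreated level at 144 h was above it.

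**Figure D2:**
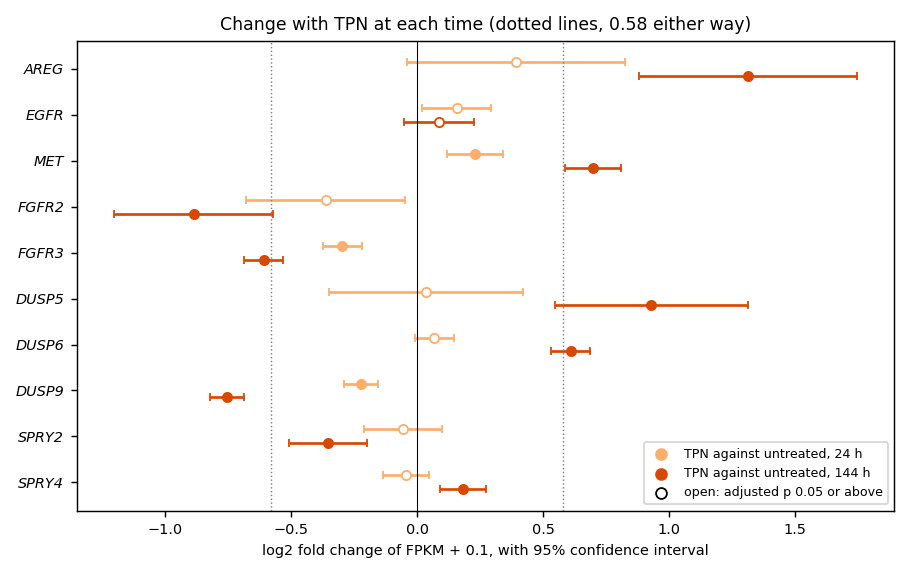
Log2 fold change of FPKM + 0.1 with TPN (horizontal axis, with 95% confidence intervals) for each gene at 24 h and 144 h; filled points passed the test at an adjusted p below 0.05, and dotted lines mark 0.58 either way. At 24 h no gene lies beyond the dotted lines with a filled point, and at 144 h 7 do, from -0.89 (FGFR2) to 1.31 (AREG).

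Whether TPN acted differently at the later time was tested by the interaction of exposure and time, which uses all 12 libraries and shares them with the comparisons above. Across all genes 30.4% had an interaction (14.1% more positive and 16.3% more negative at 144 h) and 5.87% had one past the DEG limit. Of the 10 genes, which were chosen with earlier results known, 8 had an interaction, 5 of them more positive and 3 more negative. AREG (0.92, SE 0.284, limma adjusted p = 0.0256) and DUSP5 (0.90, SE 0.252, adjusted p = 0.0165) had the largest differences, and both exceeded 0.58. The effect of TPN was also more positive at 144 h for DUSP6 (0.54), MET (0.47) and SPRY4 (0.23), and more negative for DUSP9 (-0.53), FGFR3 (-0.31) and SPRY2 (-0.30). EGFR (-0.07, 95% confidence interval -0.26 to 0.13, adjusted p = 0.601) and FGFR2 (-0.52, interval -0.97 to -0.08, adjusted p = 0.0720) did not pass. The call for AREG was lost without the first untreated library at 24 h (adjusted p = 0.0585) and without the second untreated library at 144 h (adjusted p = 0.0571), and that for SPRY2 (adjusted p = 0.0409) was lost without a filter and on leaving out any of 9 of the 12 libraries, with adjusted p from 0.0516 to 0.0982. FGFR2 passed without the second TPN library at 144 h (adjusted p = 0.0426), with quantile normalization (-0.63, adjusted p = 0.0386) and without the variance trend (adjusted p = 0.0160).

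The composition within families shifted accordingly. DUSP9 exceeded DUSP6 by 7.20 ± 0.27 times (SD, n = 3) in untreated spheroids and 5.89 ± 0.41 times with TPN at 24 h, and by 4.74 ± 0.21 and 1.84 ± 0.04 times at 144 h. DUSP9 made up 80.7% ± 0.56 of the summed FPKM of the 3 phosphatases in untreated spheroids at 144 h and 61.2% ± 0.48 with TPN, and the sum itself was 257 ± 3.47 and 201 ± 3.63 FPKM. The sum thus fell although DUSP5 and DUSP6 rose. Among receptors, FGFR3 exceeded MET by 4.34 ± 0.35 times in untreated spheroids and 1.74 ± 0.05 times with TPN at 144 h. The FGFR3 share of the summed FPKM of FGFR1 to FGFR4 was 22.2% ± 0.30 and 20.4% ± 0.55 at 144 h. That share was already lower with TPN at 24 h, at 20.2% ± 0.33 and 17.9% ± 0.31, again without overlap. SPRY4 exceeded SPRY2 by 3.17 ± 0.22 times in untreated spheroids and 4.61 ± 0.21 times with TPN at 144 h. AREG supplied 14.6% ± 3.4 of the summed FPKM of 7 EGF receptor ligands in untreated spheroids and 26.2% ± 0.95 with TPN at 144 h. None of these groups of 3 overlapped at 144 h (exact two-sided permutation p = 0.1, the smallest this design allows), and the measures were chosen with the values of the genes known.

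**Figure D3:**
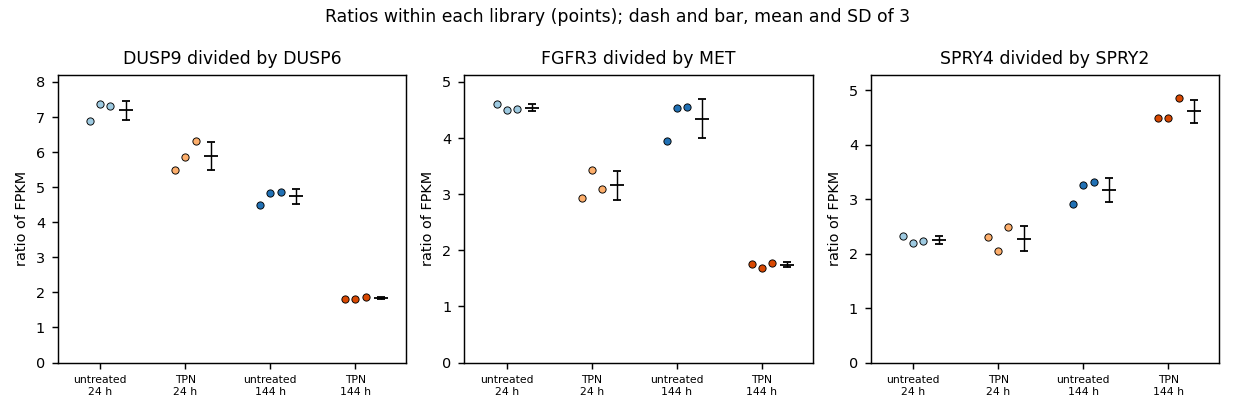
Ratios of FPKM within each library (vertical axes, from 0) for DUSP9 to DUSP6, FGFR3 to MET and SPRY4 to SPRY2; points are libraries, and the dash and bar are the mean and SD of 3. At 144 h the TPN libraries lie below the untreated ones for the first pair of panels (1.84 against 4.74, and 1.74 against 4.34) and above them in the last (4.61 against 3.17).

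In order of level, DUSP9 was first in every group, and FGFR3 and then DUSP6 followed it until 144 h of TPN, when DUSP6 (66.28 to 67.18 FPKM) passed FGFR3 (33.05 to 33.97 FPKM). SPRY4 preceded MET in both untreated groups and in the TPN group at 144 h, and MET preceded SPRY4 with TPN at 24 h. At the low end, AREG overlapped DUSP5 in untreated spheroids at 24 h, and with TPN at 24 h AREG overlapped DUSP5 and DUSP5 overlapped FGFR2. The ranges of all other neighbours in the order did not overlap, some by a narrow gap, as for SPRY4 (12.32 to 13.14 FPKM) and MET (11.25 to 12.22 FPKM) in untreated spheroids at 24 h. By 144 h of TPN, AREG (7.31 to 7.60 FPKM) and DUSP5 (9.69 to 11.84 FPKM) were both above SPRY2 and EGFR, which had led them at 24 h. In untreated spheroids at 144 h, DUSP5 (5.36 to 5.88 FPKM) was already above EGFR (4.33 to 4.73 FPKM).

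The rest of the pathway was described with lists holding 89 further genes, of which 64 passed the filter. At 24 h the test called 6 higher and 5 lower, and by 144 h it called 23 higher and 17 lower, 4 and 2 of them as DEGs, beside 10.5% of all genes called at 24 h, 52.5% called at 144 h and 9.48% DEGs at 144 h. The counts of the lists below are to be read against the same shares, and the lists were also chosen with earlier results of these data known. The median log2 fold change at 144 h was 0.05. Of the other ligands, 2 passed the filter. HBEGF, which like AREG binds EGFR, averaged 0.833, 1.37, 3.62 and 5.77 FPKM in untreated and TPN spheroids at 24 h and then at 144 h, and it was a DEG at both times (0.65, adjusted p = 7.69e-04, and 0.66, adjusted p = 8.92e-05). TGFA, another EGFR ligand, lay between 13.03 and 14.72 FPKM in all libraries and did not pass at either time.

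Of the other 11 receptors tested, 3 were lower and none higher after 24 h, and 5 were lower and 3 higher after 144 h, none as a DEG. FGFR4, the main fibroblast growth factor receptor of hepatocytes, fell by 0.47 (adjusted p = 1.18e-08) at 144 h, and the EGFR relatives ERBB2 and ERBB3 fell by 0.52 and 0.50 (adjusted p = 5.69e-07 and 7.60e-08). AXL, a receptor for GAS6, rose by 0.50 (adjusted p = 0.00118), and the insulin-like growth factor receptor gene IGF1R rose by 0.33 (adjusted p = 6.08e-04). Of 21 adaptors, RAS regulators and kinases of the cascade, 1 rose at 24 h (SHC1, an adaptor, by 0.22), and at 144 h there were 6 called in each direction, none past the DEG limit.

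With TPN the relatives of the feedback genes did not move as a block. Of 5 other MAPK phosphatases, including DUSP1 and DUSP16, 0 passed the test at either time by limma, and 0 had an unadjusted p below 0.05 at 24 h or at 144 h. SPRY1 averaged 17.6 FPKM in untreated spheroids and 10.6 with TPN at 144 h, a fall of 0.72 (adjusted p = 5.49e-06), so that SPRY1 and SPRY2 were lower and SPRY4 higher. SPRED1, a related inhibitor, rose by 0.21, and SPRED2 did not pass (0.04). Among 6 inhibitors of receptors and their ligand activators, SPINT1, an inhibitor of the protease that activates hepatocyte growth factor, was the largest riser with 7.48, 7.91 and 8.07 FPKM in untreated spheroids and 17.52, 17.43 and 18.21 with TPN at 144 h (1.17, adjusted p = 7.59e-10). LRIG3 fell by 0.62, and ERRFI1, which binds and inhibits EGFR, rose by 0.23 at 144 h from the highest level of the list. Of 16 genes known to be induced by ERK, 2 were called in each direction at 24 h, and 8 higher and 4 lower at 144 h. The transcription factor genes EGR1 (1.48) and FOSL1 (1.14) were DEGs, whereas CCND1, which encodes cyclin D1, fell by 0.43 and the ETS factor gene ETV4 fell by 0.32.

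**Figure D4:**
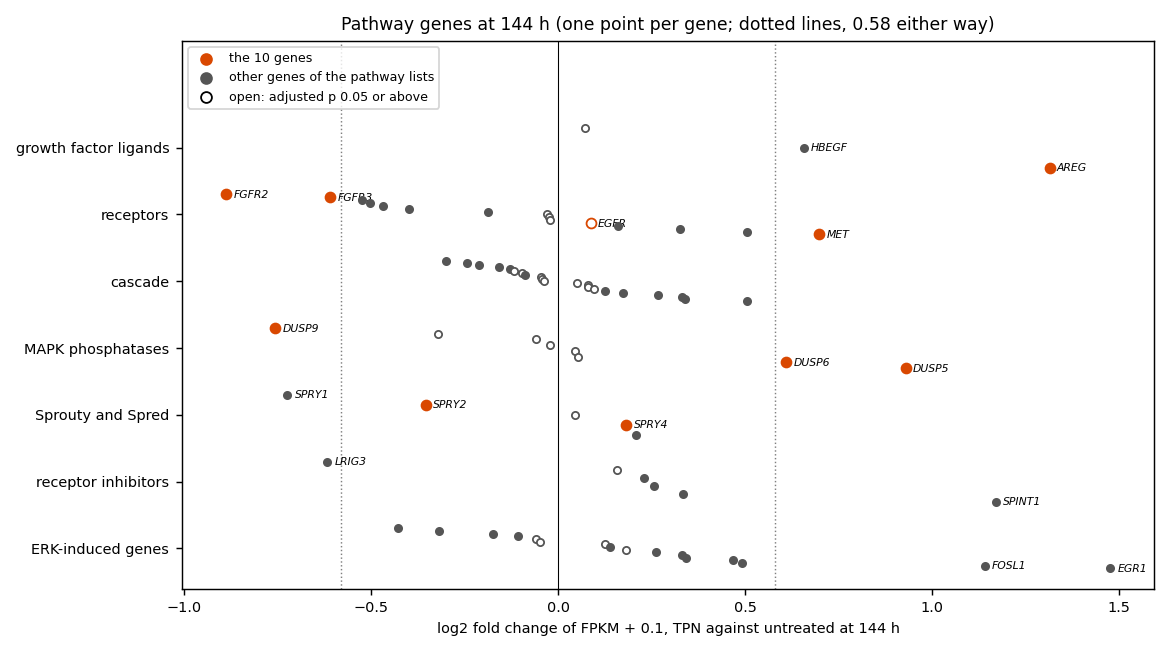
Log2 fold change of FPKM + 0.1 with TPN at 144 h (horizontal axis) for the pathway genes tested, 1 point per gene, in rows by list; coloured points are the 10 genes, dark points the others, open points did not pass the test, and named dark points are DEGs. In most rows the points lie on both sides of 0, from -0.76 (DUSP9) to 0.93 (DUSP5) among the MAPK phosphatases.

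For AREG, EGFR, DUSP5 and SPRY4 the change with time in culture was larger than that with TPN at 144 h, a contrast that was not itself tested. In untreated spheroids 72.6% of all genes changed between 24 h and 144 h and 19% were DEGs, and with TPN 76.2% changed and 26.7% were DEGs. The median of all genes fell by 0.18 in each arm on the FPKM scale, and after scaling by median ratios it was -0.00757 and -0.0105, so the changes below are given relative to the median of all genes. The calls, like the shares above, are those of FPKM as deposited, before the median was taken off. On that scale 7 of the 10 genes passed the test in untreated spheroids and 4 were DEGs, and with TPN 9 passed and 6 were DEGs. DUSP5 rose most, by 3.16 relative to the median (untreated) and 4.06 (TPN), followed by AREG, by 2.15 and 3.07. With 1 FPKM added in place of 0.1, the AREG change in untreated spheroids went from 1.96 to 1.24 before the median was taken off, and it was still called. SPRY4 rose by 1.01 and 1.24, EGFR by 0.96 and 0.89, and DUSP6 by 0.60 and 1.14, and all of these were called in both arms under each scaling. EGFR, which did not pass for TPN at either time, was therefore higher at 144 h than at 24 h with or without TPN. Relatives of the feedback genes also changed over time in untreated spheroids, to be read against the same all-gene shares. Of the 5 other MAPK phosphatases tested, 3 (DUSP1, DUSP8 and DUSP10) were higher as DEGs and 2 were called lower. The 3 other Sprouty and Spred genes were all called higher, with SPRY1 as a DEG.

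For the other 5 genes some of the time calls turned on the scaling, while those of MET, FGFR3 and DUSP9 with TPN and of SPRY2 in untreated spheroids were held under each scaling. MET was at 0.19 above the median in untreated spheroids, which was called after median ratio scaling (0.18, adjusted p = 0.00633) and not without it (0.01, adjusted p = 0.934), and it rose by 0.66 relative to the median with TPN. FGFR3 in untreated spheroids was -0.06 as deposited (adjusted p = 0.129) and 0.11 after median ratio scaling (adjusted p = 0.0108), a change of sign, and with TPN it fell by 0.38 as deposited and by 0.19 relative to the median. DUSP9 in untreated spheroids fell by 0.19 as deposited (adjusted p = 9.16e-05), a call that was lost after scaling (-0.01, adjusted p = 0.782), and with TPN it fell by 0.54 relative to the median. SPRY2 rose by 0.52 relative to the median in untreated spheroids, and with TPN it was at 0.22, called only after median ratio scaling (0.21, adjusted p = 0.0183). FGFR2 did not pass in untreated spheroids, and its fall with TPN (-0.42, adjusted p = 0.0194) was lost after that scaling (-0.27, adjusted p = 0.117), when only the libraries of that comparison were fitted (adjusted p = 0.0701), without the first TPN library at 24 h (adjusted p = 0.0803) and without the first at 144 h (adjusted p = 0.0717).

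**Figure D5:**
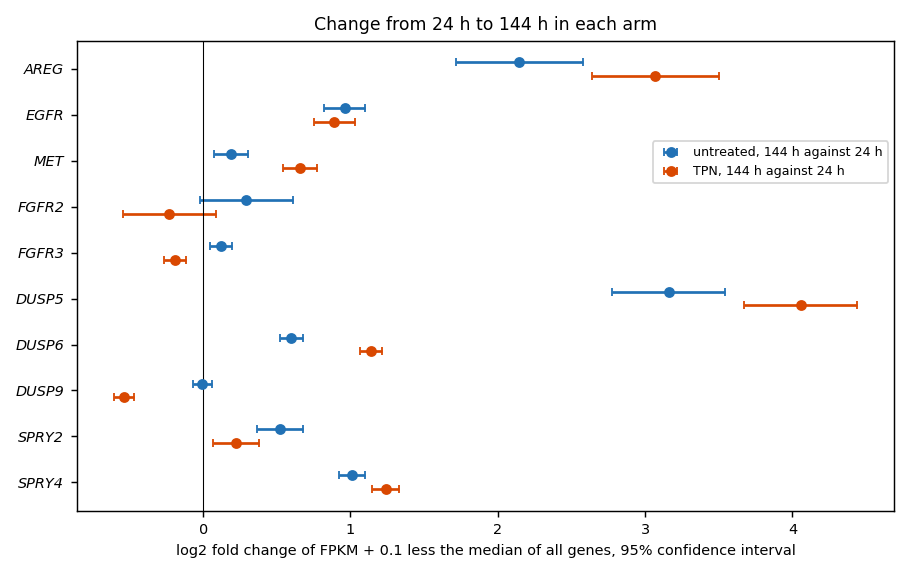
Change from 24 h to 144 h in untreated and TPN spheroids (horizontal axis, log2 fold change of FPKM + 0.1 less the median of all genes, with 95% confidence intervals) for each gene. DUSP5 and AREG lie furthest to the right in both arms (3.16 and 2.15 untreated, 4.06 and 3.07 with TPN), and DUSP9 with TPN lies furthest to the left (-0.54).

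Among genes with a mean of at least 5 FPKM, those whose profile over the 12 libraries was most like each gene were found by the root mean square difference of log2 values after centring. DUSP9 was closest to NOTUM, SLC37A4 and SEMA3B (0.0381, 0.0510 and 0.0540), and DUSP6 to MCL1, FAM135A and SOWAHC (0.0421, 0.0543 and 0.0657). The widely varying DUSP5 was closest to PCK1, RASD1 and ANGPTL4 (0.244, 0.276 and 0.290) and AREG to LURAP1L, FILIP1L and TMEM140 (0.280, 0.306 and 0.346). For the receptors these were MYO15B, RHOQ and OGA for MET, HYAL1, CTDSP1 and TST for FGFR3, ZNF764, UBD and FOXO1 for FGFR2, and PTTG1IP, CAMLG and SNX9 for EGFR, at 0.0538 to 0.139. SPRY4 was closest to PLCXD1, MBNL2 and RHPN2 (0.0512 to 0.0692). Within the 10 genes, the most alike were FGFR3 and DUSP9 (0.135) and EGFR and SPRY4 (0.139). The libraries of a group share their condition, and the likeness is given as a description over 12 libraries.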

How the data were processed

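RNA was sequenced from 12 pools of human liver spheroid co-cultures (4 groups of 3). Per the labels and the study's methods, strand-specific mRNA reads were filtered, mapped to GRCh38.p13 with HISAT2 (2.0.4) and to transcripts with Bowtie2 (2.2.5), and quantified with RSEM, and the authors deposited 1 table of FPKM values without fragment counts. The table's 20 lines without a gene were left out. Low FPKM values of 42 short genes with a single transcript advance in steps of 1 fragment (86.0% within 0.2 of a whole fragment), which gave an approximate depth.

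The log2(FPKM + 0.1) values entered limma 3.58.1 (R 4.3.3) in 1 model of 4 groups with a variance trend over 11713 genes with a mean of at least 0.5 FPKM, two-sided, with Benjamini-Hochberg adjustment; a DEG also exceeded 0.58 on the log2 scale. Fold changes on this scale understate the change of low genes. The fits were tested on simulated data. The comparisons share groups. All 10 genes were named, and, for each gene that was a DEG in any comparison, the 3 most similar genes. Of the list relatives only a part was named, and others that passed the test were given by counts alone. The members and lists were chosen with earlier results of these data known. Promoter windows came from RefSeq (GRCh38.p14). Alternatives were the added constant, the filter, the scaling, the samples fitted, the variance trend, a replicate block and leaving out each library. NRG3, HGF and DUSP2 were listed but were absent from the deposited table, so no level could be given for them.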

Additional observations from a re-analysis of the deposited data

Results flagged for a closer look

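By the interaction term of the limma fit, 8 of the 10 genes responded to TPN differently at 144 h than at 24 h, beside 30.4% of all genes. The 10 genes were chosen with earlier results of these data known, so an excess over that share is not evidence about the pathway. The difference (144 h minus 24 h, log2 scale) was 0.92 for AREG, 0.90 for DUSP5, 0.54 for DUSP6, 0.47 for MET and 0.23 for SPRY4, and it was -0.53 for DUSP9, -0.31 for FGFR3 and -0.30 for SPRY2. The SPRY2 call was lost in 10 of 21 alternatives and the AREG call in 3 of 20. For AREG, DUSP5, DUSP6, SPRY2 and SPRY4 the libraries overlapped at 24 h and were apart at 144 h. For MET, FGFR3 and DUSP9 both times passed the test in the same direction, and the later effect was larger. Groups of 3 libraries were not tested for a single distant library.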

How the results depend on the processing

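For the 10 genes, 1032 of 1070 recomputed log2 fold changes kept their direction and their side of the threshold, 21 lost a call, 8 gained one with the same sign and 9 changed sign. Of the sign changes, those of FGFR3 also gained a call (limma adjusted p = 0.0108 with median ratio scaling and 0.0131 with quantile normalization). The sign changes were all in differences not called without the alternative: MET over time in untreated spheroids (-0.010 scaled to the same total; -0.038 to 0.033 leaving out 1 library), FGFR3 over time in untreated spheroids (0.11 with median ratio scaling and 0.11 with quantile normalization), DUSP5 with TPN at 24 h (-0.16 to 0.21 leaving out 1 library), and SPRY2 with TPN at 24 h (-0.12 to 0.027) and over time with TPN (-0.044 to 0.10), also leaving out 1 library. A mean of at least 5 FPKM left out AREG, EGFR, FGFR2 and DUSP5, and among the other 6 genes gave 4 DEGs with TPN at 144 h, 0 DEGs for the interaction, 4 calls and 1 DEG over time in untreated spheroids, and 5 calls and 3 DEGs over time with TPN. Without a filter the interaction had 1 DEG, since AREG was lost (adjusted p = 0.0525). Leaving out 1 library at a time gave 2 to 3 calls and 0 to 1 DEG with TPN at 24 h, 9 calls and 7 DEGs at 144 h, and 6 to 9 calls and 1 to 3 DEGs for the interaction. Deviations from the group means correlated by -0.08 to 0.15 (median 0.05) between libraries of equal replicate number. For unequal numbers the correlations were -0.24 to 0.11 (median -0.02). These low values do not settle whether equal numbers came from the same experiment. With a replicate block the 10 genes had 3 calls at 24 h, 9 at 144 h and 8 for the interaction, as without it. AREG, DUSP5 and FGFR2, the genes with the fewest estimated fragments, had an SE of 0.147 to 0.201 for TPN against untreated spheroids, against 0.0312 for DUSP9. Each SE came from the fit of all 12 libraries and was the same at 24 h and 144 h. The part of depth in it was not tested.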
